A study of Mus musculus with 82 samples.

Results

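Dnmt3a and 9 other listed genes (Asxl2, Rab10, Dtnb, Kif3c, Hadha, Hadhb, Pomc, Efr3b and Dnajc27) were followed through 13 mouse mammary tumour models, as 10 of the 47480 genes in the count table. The genes were chosen by their count levels in the tumour model 2225 relative to the other 12 models, so the difference of 2225 from the other models is given for these genes as a description, with no test. All 10 passed the filter on low counts that left 22847 genes. The list was named for chromosome 12, and 8 of the 10 genes lie there. Hadha and Hadhb lie on chromosome 5 in the mouse annotation (GENCODE M21, build mm10), and they served as the members outside the stretch.

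The series held 82 untreated mammary tumours measured by mRNA sequencing as bulk tissue. 2225 had 10 tumours in BALB/c mice. The other 8 BALB/c models were 2153 (n = 7), 2208 (n = 12), 2224 (n = 4), 2250 (n = 11), 2336 (n = 5), 4T1 (n = 5), 9263 (n = 7) and T12 (n = 3). KPB1-A (n = 2), MMTV-NEU (n = 8) and MMTV-PYMT (n = 5) were FVB tumours, and E0771 (n = 3) was the only model in C57BL/6. The labels give the tissue, the strain and the model name of each tumour, and neither the genotype, the age nor the passage of a line, so strain and model cannot be told apart. As background, the MMTV prefix stands for the mouse mammary tumour virus promoter that drives a transgene in the mammary epithelium, and 4T1 and E0771 are cell lines grown as tumours. Total counts per library ran from 14.4 M to 133 M with a median of 58.2 M, and from 17.2 M to 97.6 M within 2225 (M, 1e+06 counts). The epithelial markers Epcam, Krt8 and Krt18 were present in every 2225 library, at 524 to 959, 674 to 1343 and 903 to 1766 CPM (counts scaled to a normalized library of 1e+06).

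DNMT3A places new methyl groups on cytosines, mainly at CpG dinucleotides, and works beside its relative DNMT3B and the maintenance enzyme DNMT1. The genes around it on chromosome 12 have parts in membrane traffic, motor transport, chromatin and signalling. RAB10 is a small GTPase that steers vesicles to the plasma membrane, KIF3C is a subunit of a kinesin-2 motor, ASXL2 is a chromatin protein that partners the histone H2A deubiquitinase BAP1, and DTNB is beta-dystrobrevin, a member of the dystrophin-associated complex. POMC is the precursor of ACTH, the melanocortins and beta-endorphin, EFR3B anchors a phosphatidylinositol kinase complex at the plasma membrane, and DNAJC27 is a Rab-like GTPase with a J domain. HADHA and HADHB are the alpha and beta subunits of the mitochondrial trifunctional protein, which carries out the last steps of long-chain fatty acid oxidation.

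The 8 chromosome 12 members lie in the order Rab10, Kif3c, Asxl2, Dtnb, Dnmt3a, Pomc, Efr3b and Dnajc27, from chr12:3247428 to chr12:4110606 (mm10), a span of 863.2 kb. Rab10 and Efr3b are on the minus strand and the other 6 on the plus strand. Dnmt3a itself occupies chr12:3806007-3914443. Hadha (chr5:30118304-30155162, minus strand) and Hadhb (chr5:30155248-30184593, plus strand) lie head to head with 85 bases between their annotated ends. The upstream sequences of 3 genes of the chromosome 12 stretch, and the gap shared by Hadha and Hadhb, are shown because the first 3 genes were low together in 2225 while the last pair was not. They are RefSeq sequences of build GRCm38.p6, each the 250 bases before an annotated start read 5′ to 3′ on the strand of the gene, except the gap, which is read on the plus strand. Capitals mark the GC box GGGCGG and the CCAAT box, on either strand. The window of Rab10 is chr12:3309970-3310219 (minus strand), that of Dnmt3a is chr12:3806730-3806979 (plus strand), inside the annotated gene but outside its exons, that of Dnajc27 is chr12:4082324-4082573 (plus strand), and the gap is chr5:30155163-30155247.
Rab10 upstream: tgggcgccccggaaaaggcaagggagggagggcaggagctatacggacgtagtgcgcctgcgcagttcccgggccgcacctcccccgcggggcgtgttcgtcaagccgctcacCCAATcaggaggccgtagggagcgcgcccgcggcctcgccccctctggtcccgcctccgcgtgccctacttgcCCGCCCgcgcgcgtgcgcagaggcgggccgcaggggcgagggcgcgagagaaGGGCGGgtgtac
Dnmt3a upstream: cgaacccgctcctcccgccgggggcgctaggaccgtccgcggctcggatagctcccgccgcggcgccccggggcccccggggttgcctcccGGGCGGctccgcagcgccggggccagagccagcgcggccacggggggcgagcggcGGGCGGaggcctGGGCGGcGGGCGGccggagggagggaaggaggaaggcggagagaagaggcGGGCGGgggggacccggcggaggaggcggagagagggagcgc
Dnajc27 upstream: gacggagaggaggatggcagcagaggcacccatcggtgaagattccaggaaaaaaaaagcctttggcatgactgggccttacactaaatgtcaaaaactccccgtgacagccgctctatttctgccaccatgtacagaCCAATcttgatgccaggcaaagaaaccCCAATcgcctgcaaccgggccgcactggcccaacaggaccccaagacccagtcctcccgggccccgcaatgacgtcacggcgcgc
Hadha to Hadhb gap: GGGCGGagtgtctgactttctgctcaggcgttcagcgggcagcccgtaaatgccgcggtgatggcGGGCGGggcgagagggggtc
The Dnmt3a window held 38 CpG dinucleotides and 5 GC boxes, the Rab10 window 34 CpG, 2 GC boxes and 1 CCAAT box, the Dnajc27 window 13 CpG and 2 CCAAT boxes with no GC box, and the 85-base gap 9 CpG and 2 GC boxes. Over the 32851 promoters of the table the median was 6 CpG in windows of 250 bases, 32.7% held a GC box and 33.8% a CCAAT box. The gap is shorter, so these values are no measure for it. The 3 printed windows of low genes therefore did not share 1 of these motifs, and a match is only a description of the letters. They are a selection. Windows not printed held 0 GC boxes and 0 CCAAT boxes for Kif3c, 1 GC box for Asxl2, and 0 to 5 GC boxes over the starts of Dtnb. Other annotated starts of Dnmt3a had 4 and 1 GC boxes. Those other Dnmt3a starts were found in a GENCODE transcript of the gene, while the printed Dnmt3a and Dnajc27 starts were not.

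Dnmt3a had 4.74, 5.58 and 8.70 CPM as the lowest, median and highest of the 10 2225 tumours, against 45, 74.9 and 199 CPM over the 72 other tumours. Every 2225 tumour lay below every other tumour, with a gap of 5.17-fold between the highest 2225 value and the lowest value elsewhere, which was a 4T1 tumour. The 2225 mean of 6.06 ± 1.37 CPM (SD, n = 10) was 7.31% of the average of the other 12 model means, 82.9 CPM, and the log2 difference was -3.69 (SE 0.11). These values rest on 166 to 576 reads per 2225 library, so Dnmt3a was low but counted in every one. In bulk tissue a smaller share of cells that express a gene and less of its RNA per cell cannot be told apart. The log2 difference sets the 2225 mean against the average of the other models' log2 means, and the percentage uses plain CPM means.

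Rab10, at the start of the stretch, had 7.53, 10.8 and 15 CPM (lowest, median, highest) in 2225 and 92.0, 207 and 361 CPM elsewhere. Its 2225 mean was 5.63% of the level elsewhere, a log2 difference of -4.05 (SE 0.09). Kif3c had 1.52, 2.07 and 3.09 CPM in 2225 and 17.2, 43.7 and 124 CPM elsewhere, a log2 difference of -4.30 (SE 0.13). In both genes the ranges did not touch, with gaps of 6.14-fold for Rab10 and 5.57-fold for Kif3c. Asxl2 had 1.46, 2.70 and 3.72 CPM in 2225 and 19.2, 60.1 and 119 CPM elsewhere, a log2 difference of -4.43 (SE 0.17). Its ranges were 5.16-fold apart.

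Dtnb stood lowest relative to the other models. It had 0.144, 0.550 and 0.733 CPM in 2225 and 15.4, 55.0 and 131 CPM elsewhere, so that 0.998% of the level elsewhere was left and the log2 difference was -6.50 (SE 0.16). The gap between its ranges was 21.1-fold, and the 2225 counts were 9 to 67 reads per library. Dnajc27, the last gene of the stretch, had 0.654, 0.911 and 1.53 CPM in 2225 and 4.89, 11.6 and 27.9 CPM elsewhere. Its ranges were 3.20-fold apart and the log2 difference was -3.55 (SE 0.13).

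Pomc and Efr3b lie between Dnmt3a and Dnajc27 and had low levels in all models. Efr3b had 0.654, 1.24 and 2.04 CPM in 2225 and 0.862, 2.45 and 6.46 CPM elsewhere, a log2 difference of -1.21 (SE 0.17). Its ranges overlapped, and 1 of the 10 2225 tumours lay below all others. Pomc had 0, 0.0227 and 0.0666 CPM in 2225 and 0, 0.0425 and 0.516 CPM elsewhere. It amounted to 14 reads over all 10 2225 libraries, and KPB1-A had none, so no fold is given for it. At this depth a difference of Pomc between 2225 and the rest was not detectable.

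Hadha and Hadhb on chromosome 5 were on the other side. Hadha had 179, 216 and 276 CPM in 2225 and 79.8, 145 and 332 CPM elsewhere, a log2 difference of 0.58 (SE 0.06). Hadhb had 78.4, 91.1 and 117 CPM in 2225 and 42.5, 66.7 and 134 CPM elsewhere, a log2 difference of 0.43 (SE 0.09). The 2225 tumours lay within the range of the others for both genes, and 2225 ranked second to 2336 of the 13 models in each. The model ranked next did not differ from 2225 beyond the spread. For Hadha it was MMTV-PYMT at 198 ± 31.7 CPM (SD, n = 5) against 219 ± 29.8 CPM in 2225 (n = 10). For Hadhb it was MMTV-NEU at 95.1 ± 23.0 CPM (n = 8) against 96.0 ± 12.7 CPM in 2225. Per kb of exon, Rab10 had the highest level of the 6 low genes in 2225, at 3.10 CPM per kb against 55.0 elsewhere, followed by Dnmt3a at 0.364 against 4.98 elsewhere, while Dtnb had 0.0543 against 5.45 elsewhere.

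**Figure D1:**
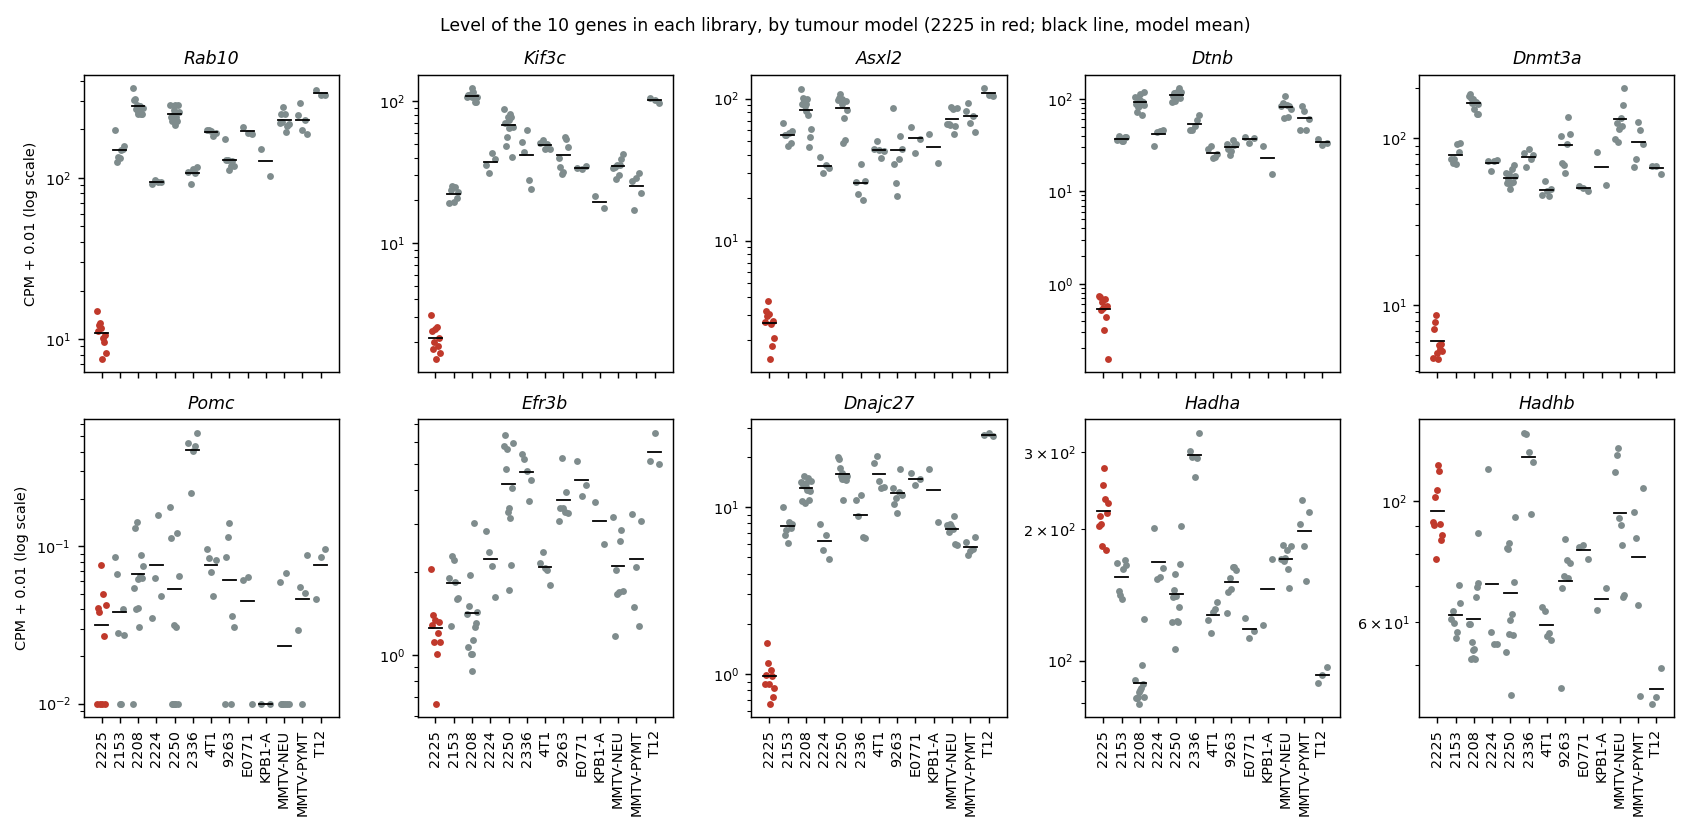
CPM of each of the 10 genes in every library (points, log scale, 0.01 added so that 0 can be drawn) by tumour model, with 2225 in red at the left and the model mean as a black line. Rab10, Kif3c, Asxl2, Dtnb, Dnmt3a and Dnajc27 lie below all other libraries in 2225, while Hadha and Hadhb lie within the range of the rest.

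**Figure D2:**
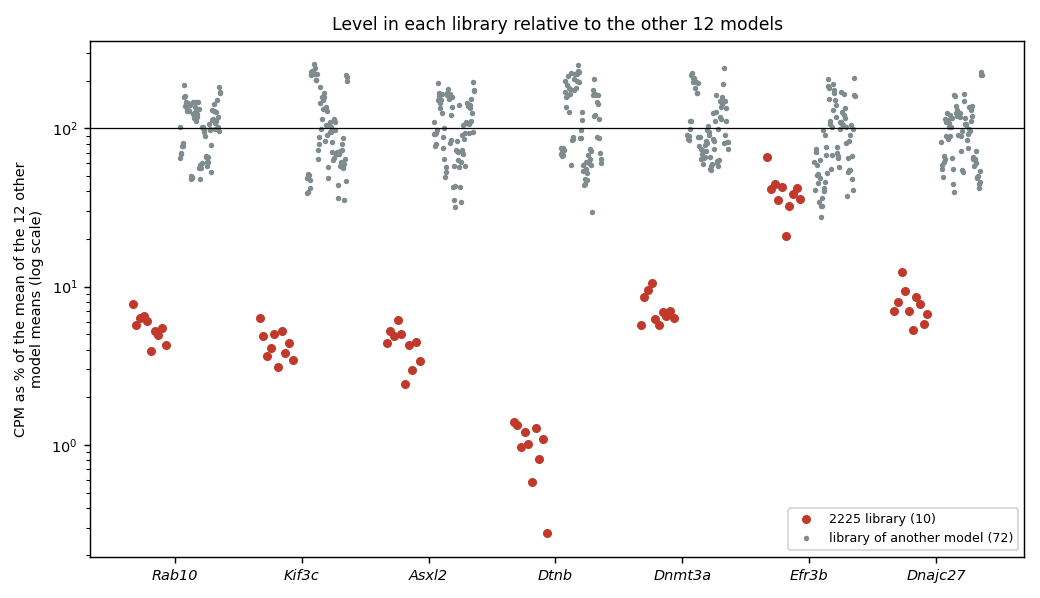
CPM of each library as a percentage of the average of the 12 other model means (log scale), with the 10 libraries of 2225 (red) left of the 72 other libraries (grey) for each of 7 chromosome 12 genes. The 2225 means are 5.63% for Rab10, 0.998% for Dtnb and 7.31% for Dnmt3a, and Efr3b at 39.9% overlaps the rest.

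A difference between 2225 and the other models was common: 61.0% of the 22847 genes passed an adjusted p of 0.05 (edgeR quasi-likelihood test with Benjamini-Hochberg adjustment), 26.8% lower and 34.2% higher. Differences as large as those of the 6 low genes were not: 2.49% of the genes had a log2 difference under -3. Only 54 genes, 0.236%, had every 2225 tumour below every other tumour. These 54 included the 6 low members, and with 1110002L01Rik they were the 7 such genes on chromosome 12. Chromosome 13 held 8 of the 54, and no other chromosome held more than 5. Because low 2225 values chose the members, nothing is read from their share.

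The low genes were bounded by genes with far smaller differences. Rab10os, an antisense gene on the plus strand that overlaps Rab10 by 2950 bases, was the only tested gene between the start of the annotated chromosome and Rab10. It had 23.9 ± 4.65 CPM in 2225 (SD, n = 10) and an average of 20.0 CPM over the other models, a log2 difference of 0.63 (SE 0.10, edgeR adjusted p 1.97e-07). Adcy3, an adenylyl cyclase gene, begins 22.5 kb beyond the end of Dnajc27. It had 23.3 ± 3.0 CPM in 2225 (SD, n = 10) and an average of 22.2 CPM elsewhere, a log2 difference of 0.38 (SE 0.14, edgeR adjusted p 0.0136), and the range over model means elsewhere was 3.89 to 42.6 CPM. Cenpo, the next gene, encodes a centromere protein and had 12.8 CPM in 2225 and 16.8 CPM elsewhere, a log2 difference of -0.35 (SE 0.07, edgeR adjusted p 1.25e-05). Of the following genes with at least 5 CPM elsewhere, Ptrhd1 (log2 -0.50, SE 0.09), Ncoa1 (-0.43, SE 0.12) and Itsn2 (-0.67, SE 0.11) also passed as lower. Farther out Ubxn2a (-1.06, SE 0.12) and Atad2b (-0.88, SE 0.20) were lower, Sf3b6 (-0.04, SE 0.11) did not pass, and Klhl29 (2.68, SE 0.21) was higher. Over all genes 26.8% were lower. Between Rab10os and Adcy3, every gene with an average of at least 5 CPM elsewhere had a log2 difference under -3.

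Of the other genes inside the stretch, 1110002L01Rik, an antisense gene that overlaps the end of Kif3c by 2617 bases and the start of Asxl2 by 155, had 0.312 ± 0.174 CPM in 2225 (SD, n = 10) and 9.38 CPM elsewhere, a log2 difference of -4.79 (SE 0.22, edgeR adjusted p 8.28e-32). Dtnbos, antisense within Dtnb, had 0.00466 CPM in 2225 and 0.237 CPM elsewhere (log2 -4.40, SE 0.53, edgeR adjusted p 2.98e-11). Dnmt3aos, antisense within Dnmt3a, had 0.0282 CPM in 2225 and 0.0816 CPM elsewhere and did not pass (edgeR adjusted p 0.151). Gm26520, a long non-coding RNA gene between Rab10 and Kif3c, had 0.00305 CPM in 2225 and 0.0368 CPM elsewhere and gave no usable difference. The strand setting of the authors' counting is not given in the sources used here, so reads of a gene and of its antisense partner cannot be told apart.

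Taken in gene order over all tested genes, the run under a log2 difference of -2 around Dnmt3a held 8 genes, from Rab10 to Dnmt3a over 667 kb, and ended at the barely expressed Dnmt3aos. These 8 include Gm26520, whose fitted value of -2.13 rests on almost no reads (SE 1192, edgeR adjusted p 1), and Dtnbos at 0.237 CPM elsewhere. Over all tested genes this was not the longest run of 2225 at -2, which was 9 genes on chromosome 16 from Krtap19-5 to 1110025L11Rik, and T12 reached 19. At -3 over all tested genes the run held 6 genes from Kif3c to Dnmt3a, where the longest runs were 8 genes in T12 and 7 in E0771. With genes under 5 CPM elsewhere left out, a choice made after the values were seen, the run held 7 genes from Rab10 to Dnajc27 over 863.2 kb at thresholds of -1, -2 and -3 alike. Under the same rule at -3, the longest run in any other model was 6 genes, of keratins on chromosome 15 in 4T1, and the next longest in 2225 was 4 genes, of the Ifit family on chromosome 19. At -2 the longest runs of 2336, MMTV-NEU and T12 also reached 7 genes, among them the stretch from the mast cell protease gene Mcpt2 to the granzyme gene Gzmc in 2336 and that from Krt7 to Krt79 in T12. At -1 longer runs were present elsewhere, of 11 genes in 4T1 and T12, 9 in 9263 and 8 in 2250, 2336 and KPB1-A, and 2225 had another run of 7, from Slfn5 to AI662270.

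**Figure D3:**
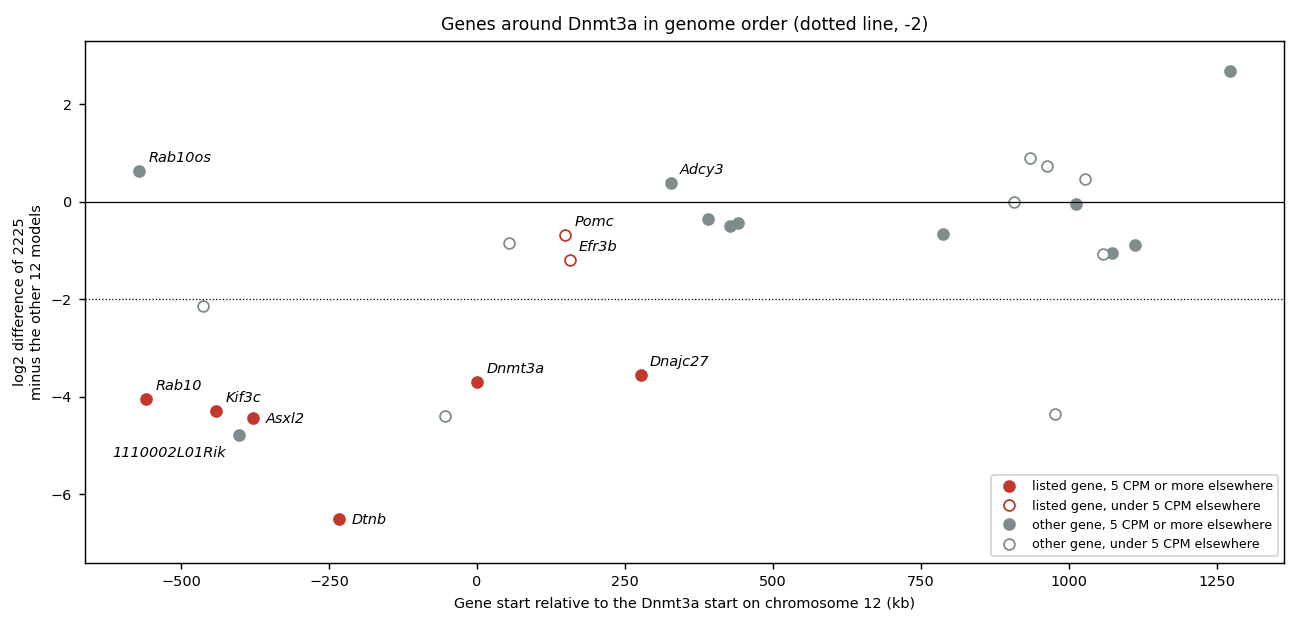
Log2 difference of 2225 minus the other 12 models (vertical) for the tested genes around Dnmt3a against the distance of each gene's start from the Dnmt3a start (horizontal, kb), with the listed genes in red and genes under 5 CPM elsewhere as open circles. The filled points from Rab10 to Dnajc27 lie under -3, and Rab10os at 0.63 and Adcy3 at 0.38 lie just outside.

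Outside 2225 the members also differed between models, which is independent of the contrast that chose them. All 10 passed an F test among the other 12 models (edgeR quasi-likelihood, Benjamini-Hochberg adjustment), where 97.7% of all genes passed. The F value was highest for Kif3c (52.8, adjusted p 2.50e-29) and lowest for Pomc (6.32, adjusted p 4.18e-07). Dnmt3a had F 35.3 (adjusted p 3.37e-24) and ranked 4950 of 22847. Among these 12 models the mean levels spanned 3.35-fold for Dnmt3a, 3.55-fold for Rab10, 4.32-fold for Asxl2, 4.78-fold for Dtnb and 5.60-fold for Kif3c.

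Dnmt3a was highest in 2208, at 163 ± 14.4 CPM (SD, n = 12), and next in MMTV-NEU at 130 ± 34.4 CPM (n = 8). MMTV-PYMT followed at 94.1 ± 24.1 CPM (n = 5), 9263 at 90.8 ± 25.9 CPM (n = 7), 2153 at 79.7 ± 9.54 CPM (n = 7), 2336 at 77.5 ± 6.98 CPM (n = 5), 2224 at 70.7 ± 4.62 CPM (n = 4), KPB1-A at 67.5 ± 21.6 CPM (n = 2) and T12 at 65.8 ± 4.13 CPM (n = 3). The lowest models above 2225 were 2250 at 57.9 ± 5.80 CPM (n = 11), E0771 at 50.1 ± 1.82 CPM (n = 3) and 4T1 at 48.6 ± 3.91 CPM (n = 5). Of the 12 steps between neighbours in this order, 4 exceeded the larger of the neighbouring SDs: from 2225 to 4T1, E0771 to 2250, 2250 to T12, and MMTV-PYMT to MMTV-NEU. The other neighbours, 2208 and MMTV-NEU among them, did not differ beyond their spread.

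Each of the 12 models was then set against the average of the remaining 11, with 2225 in neither side. Dnmt3a was higher in 2208 (log2 1.16, SE 0.07, edgeR adjusted p 4.28e-23) and in MMTV-NEU (log2 0.80, SE 0.09, adjusted p 1.07e-12), and by less in MMTV-PYMT (0.30) and 9263 (0.24). It was lower in 4T1 (log2 -0.74, SE 0.12, edgeR adjusted p 5.24e-07), E0771 (-0.69) and 2250 (-0.47), and did not pass in the other 5. Over all 120 member and model pairs, 37 were higher, 35 lower and 48 did not pass, where 28.9% of all gene and model pairs were higher and 23.0% lower. By model, 9 of the 10 members passed in 2208 and in MMTV-NEU (53.2% and 62.2% of all genes), 8 in T12 (47.5%), 7 each in 2250, 2336 and MMTV-PYMT (59.9%, 56.5% and 51.0%), 5 each in 2153, 4T1 and 9263 (53.5%, 48.6% and 55.7%), 4 in E0771 (56.0%) and 3 each in 2224 and KPB1-A (39.3% and 40.1%). The higher pairs include Pomc in 2336, the model through which Pomc passed the filter on low counts. No test of these shares was made, and the 12 comparisons share libraries.

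The neighbours of Dnmt3a differed in the same direction as Dnmt3a in some models and in the opposite direction in others. In 2208 Kif3c (log2 1.50, SE 0.08), Dtnb (1.07, SE 0.08), Rab10 (0.69, SE 0.06) and Asxl2 (0.63, SE 0.11) were higher, and Efr3b (-1.10, SE 0.15) was lower. In T12 Dnajc27 (log2 1.40, SE 0.14), Kif3c (1.39, SE 0.14), Asxl2 (1.06, SE 0.19), Efr3b (1.03, SE 0.23) and Rab10 (0.98, SE 0.10) were higher, while Dtnb (-0.49, SE 0.17) was lower and Dnmt3a did not pass. In 2250 Dtnb was higher (log2 1.37, SE 0.09) and Dnmt3a lower. In MMTV-NEU and MMTV-PYMT Kif3c and Dnajc27 were lower and Dtnb higher. Pomc was highest in 2336, with 122 reads in all, 4 to 38 per library, and 0.209 to 0.516 CPM. It passed the filter on low counts only through these libraries, so its test in 2336 is not read. The remaining models averaged 0 to 0.0661 CPM on 0 to 42 reads each, so no fold is given. In 2336 Hadha (log2 1.10, SE 0.08) and Hadhb (0.83, SE 0.12) were higher, while Asxl2 (-1.24, SE 0.19) and Rab10 (-0.81, SE 0.10) were lower.

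The likeness between members changed with the inclusion of 2225. Over all 13 model means of log2 CPM, the genes most like Dnmt3a among 12223 genes of at least 5 CPM were Dtnb (Pearson r = 0.923), Habp4 (0.884), Asxl2 (0.856), Rab10 (0.844) and 1110002L01Rik (0.811). Over the 12 models other than 2225 they were Grb10 (r = 0.902), Prkci (0.847), Lrp4 (0.805), Cadps2 (0.788) and Zfand2b (0.785). Over these 12 models Dtnb ranked 566 (r = 0.528), Asxl2 had r = 0.238, Rab10 0.182, Kif3c 0.178 and Dnajc27 -0.382. The points share their libraries and normalization, and the low 2225 point enters every member's value in the first set. Among the other pairs over 12 models, Rab10 and Asxl2 had r = 0.925, Hadha and Hadhb 0.800, and Hadha and Dnajc27 -0.699.

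Among genes of DNA methylation, Dnmt3b was higher in 2225. It had 42.0, 53.0 and 60.2 CPM (lowest, median, highest of 10) in 2225, and the other models averaged between 3.38 (4T1) and 24.4 CPM (9263). The log2 difference was 2.52 (SE 0.11, edgeR adjusted p 4.32e-32), and the highest single tumour elsewhere was a 9263 tumour at 38.3 CPM. All 10 2225 tumours therefore lay above all tumours of the other models. The share of all genes with such a separation upward was not counted. Dnmt1, the maintenance enzyme, had 258 ± 26.0 CPM in 2225 (SD, n = 10) and 314 CPM elsewhere and did not pass (log2 -0.14, edgeR adjusted p 0.0931). Of the 18 genes listed for DNA methylation, 8 were higher and 2 lower in 2225, with a median log2 difference of 0.20, beside 34.2% higher, 26.8% lower and a median of 0.02 over all 22847 genes. Dnmt3l, the cofactor of the de novo enzymes, passed as higher (log2 0.78, SE 0.28, edgeR adjusted p 0.0131) at only 0.311 CPM, under the plain average of 0.399 CPM elsewhere that E0771 at 3.07 CPM raises. Gadd45a (log2 -0.41, SE 0.16) and the methyl-CpG binding gene Mbd2 (-0.18, SE 0.06) were the 2 lower genes, and neither passed without T12 and E0771 in the comparison (edgeR adjusted p 0.0523 and 0.107). Dnmt3l did not pass in the authors' normalized table (limma adjusted p 0.0855).

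**Figure D4:**
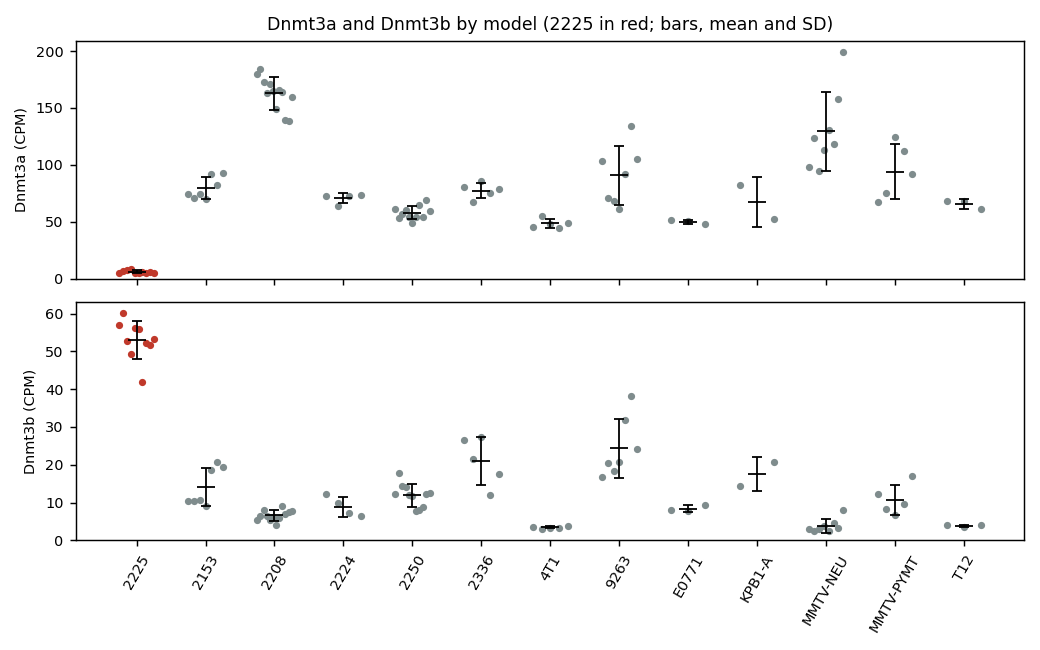
CPM of Dnmt3a (upper panel) and Dnmt3b (lower panel) in every library by tumour model, with 2225 in red at the left and bars for the mean and SD of each model. Dnmt3a averages 6.06 CPM in 2225 and 48.6 to 163 CPM elsewhere, while Dnmt3b averages 53.1 CPM in 2225 and 3.38 to 24.4 CPM elsewhere.

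Of 16 germ line genes that promoter methylation is known to keep silent, 10 had counts enough for testing. In this list 1 gene was higher and 3 lower, where 34.2% of all genes were higher and 26.8% lower. Against the 8 other BALB/c models alone 2 were higher and 1 lower, and with no filter on low counts 4 were higher and 3 lower. Piwil2 was the 1 higher gene, at 40.3 ± 6.77 CPM in 2225 (SD, n = 10) against model means of 0.298 to 85.5 CPM elsewhere (log2 4.13, SE 0.19, edgeR adjusted p 3.10e-31). Ddx4 (log2 -2.58, SE 0.59), Sycp3 (-1.89, SE 0.69) and 1 more gene were lower, all at 0.0113 CPM or less in 2225. The median log2 difference over the 10 was -0.26. It lies between Slc25a31 (-0.37, SE 0.57) and Tdrd1 (-0.15, SE 2.70), which had only 0.0317 and 0.0489 CPM in 2225. Sycp3 did not pass against the 8 other BALB/c models alone (edgeR adjusted p 0.0538).

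The partners of the other members moved in both directions. For ASXL2, its paralog Asxl1 had 206 ± 14.9 CPM in 2225 (SD, n = 10) and model means of 91.3 to 142 CPM elsewhere (log2 0.90, SE 0.06, edgeR adjusted p 1.08e-21). Bap1 had 144 ± 14 CPM in 2225 (n = 10) and 51.4 to 105 CPM elsewhere (log2 0.91, SE 0.05, edgeR adjusted p 5.01e-27). Of the 11 genes of the ASXL and BAP1 list 4 were higher and 2 lower (Foxk2, -0.33 and the histone demethylase Kdm1b, -0.30), with a median of -0.16, where 34.2% of all genes were higher and 26.8% lower. Without 2225 tumour 2 the list had 2 higher genes, and without T12 and E0771 it had 4 lower genes. Kdm1b did not pass against the 8 other BALB/c models alone (log2 -0.12, edgeR adjusted p 0.311).

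For RAB10, 11 of 16 relatives and regulators were lower in 2225 and 1 was higher, with a median log2 difference of -0.58, where 26.8% of all genes were lower and 34.2% higher. The higher genes numbered 2 against the 8 other BALB/c models, without T12 and E0771, and with any of 5 single libraries left out (2225 tumours 2, 4 and 8, 2336 tumour 4 and MMTV-PYMT tumour 1). Tbc1d4, a GTPase-activating protein for RAB10, had 10.3 ± 1.48 CPM in 2225 (SD, n = 10) and 13.6 to 93.5 CPM elsewhere (log2 -1.77, SE 0.13, edgeR adjusted p 5.77e-20). Dennd4a, of the family of RAB10 exchange factors, was also lower (log2 -0.98, SE 0.15). Tbc1d1, the paralog of Tbc1d4, was the higher one (log2 0.44, SE 0.07). The closest relative, Rab8a, had 81.3 ± 13.1 CPM in 2225 (n = 10) and 94.4 CPM elsewhere and did not pass (log2 -0.17, edgeR adjusted p 0.0763), although it passed as lower by limma (adjusted p 0.0274) and DESeq2 (adjusted p 0.045).

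For DTNB, the paralog Dtna was lower in 2225 too, although it lies on another chromosome. Dtna had 0, 0.0209 and 0.131 CPM (lowest, median, highest of 10) in 2225, and model means from 0.196 CPM in KPB1-A to 22.4 CPM in T12 elsewhere (log2 -6.19, SE 0.38, edgeR adjusted p 1.28e-24). Both dystrobrevin genes were thus under 1 CPM in every 2225 tumour. Of the 11 genes of the dystrophin complex list 3 were higher and 4 lower, with a median of -0.27, where 34.2% of all genes were higher and 26.8% lower. Sntb2 (log2 -1.0, SE 0.15) was lower, and the syntrophin Sntb1 (1.17, SE 0.17) was higher. Sntb1 no longer passed without T12 and E0771 in the comparison (log2 0.08, edgeR adjusted p 0.741).

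For KIF3C, 5 of 10 kinesin-2 and ciliary transport genes were higher and 3 lower, with a median of 0.07, where 34.2% of all genes were higher and 26.8% lower. Without T12 and E0771 3 were higher. Ift52 (log2 0.89, SE 0.06) and Ift140 (0.43, SE 0.07), of the intraflagellar transport particles, were higher, as was the motor subunit Kif3a (0.32, SE 0.09), and the motor subunits Kifap3 (-0.39, SE 0.06) and Kif3b (-0.16, SE 0.06) and the dynein heavy chain Dync2h1 (-0.35, SE 0.14) were lower. Dync2h1 did not pass against the 8 other BALB/c models alone (edgeR adjusted p 0.201), nor Kif3b without T12 and E0771 (adjusted p 0.150). For EFR3B, 4 of 7 genes of the phosphatidylinositol kinase complex were lower and 2 higher, with a median of -0.42, beside the same 26.8% lower and 34.2% higher over all genes. Its paralog Efr3a had 59.6 ± 6.59 CPM in 2225 (SD, n = 10) and 75.7 to 179 CPM elsewhere (log2 -0.99, SE 0.14, edgeR adjusted p 1.87e-09), and the kinase gene Pi4ka was lower as well (-0.78, SE 0.08). Tmem150a (0.60, SE 0.14) and Ttc7b (0.53, SE 0.12) were the higher ones.

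For HADHA and HADHB, 9 of the 20 other fatty acid oxidation genes were higher and 2 lower, with a median of 0.24, where 34.2% of all genes were higher and 26.8% lower. The lower genes numbered 4 without T12 and E0771 and 1 against the 8 other BALB/c models. Cpt1a, the carnitine palmitoyltransferase that admits fatty acids to mitochondria, had 157 ± 26.1 CPM in 2225 (SD, n = 10) and 31.1 to 132 CPM elsewhere (log2 0.84, SE 0.11, edgeR adjusted p 1.92e-10). The thiolase gene Acaa2 was higher too (0.71, SE 0.09), while Cpt2 (-0.24, SE 0.08) was lower. Against the 8 other BALB/c models alone Cpt2 did not pass (log2 -0.01, edgeR adjusted p 0.959).

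Of 11 tested genes of POMC processing and melanocortin signalling 3 were higher and 3 lower, where 34.2% of all genes were higher and 26.8% lower. The list median of -1.02 is the fitted value of Mc3r, which had 0 CPM in 2225 and 0.0238 CPM elsewhere (SE 3733). No shift of the list is read from it. The melanocortin receptor gene Mc1r had 43.2 ± 9.02 CPM in 2225 (SD, n = 10), and model means elsewhere ran from 0 to 34.3 CPM (log2 9.02, SE 0.34, edgeR adjusted p 8.18e-35). That log2 value depends on models near 0 and is no measure of a fold. The prohormone convertase gene Pcsk1 (log2 -4.37, SE 0.71) and the carboxypeptidase gene Cpe (-2.27, SE 0.38) were lower. Pcsk2 passed as higher (2.03, SE 0.37) at 0.123 CPM in 2225 while its highest model mean elsewhere was 12.5 CPM, and it did not pass in the authors' normalized table (log2 0.38, limma adjusted p 0.212).

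The low levels left in 2225 were compared with RNA of host cells in the same libraries. A host cell score was the mean log2 CPM of 24 markers of endothelial cells, macrophages and T cells, and it ran from 1.94 to 2.97 with a median of 2.41 over the 10 libraries of 2225. Rab10 went with it (Pearson r = 0.865, permutation p 0.00146, adjusted p 0.0146 over 30 relations; Spearman rho = 0.842, permutation p 0.0034, adjusted p 0.0215; n = 10). Without the 2 libraries farthest from the median score r was 0.801 and no longer passed (permutation test, adjusted p 0.0646). Efr3b (r = 0.767, permutation adjusted p 0.0769), Asxl2 (r = 0.701, adjusted p 0.107), Dnajc27 (r = 0.691, adjusted p 0.107) and Dnmt3a (r = 0.535, adjusted p 0.289) did not pass. Their Spearman values were 0.648, 0.636, 0.442 and 0.370, with permutation adjusted p of 0.181, 0.181, 0.380 and 0.447. Nor did Dtnb (r = 0.435) and Kif3c (r = 0.423) pass, each with a permutation adjusted p of 0.344. Hadha (r = -0.605, permutation adjusted p 0.188), Hadhb (r = -0.436, adjusted p 0.344) and Pomc (r = -0.064, adjusted p 0.927) had negative values and did not pass. Without the same 2 libraries Dnmt3a had r = 0.882 and Asxl2 r = 0.864, both with a permutation adjusted p of 0.0168, and with the endothelial markers alone in the score Dnmt3a had r = 0.056.

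In the other large models Rab10 had r = 0.094 (permutation adjusted p 0.864, n = 12) in 2208 and -0.261 (adjusted p 0.569, n = 11) in 2250. Efr3b in 2208 (r = 0.776, permutation adjusted p 0.0146, n = 12) and Kif3c in 2250 (r = 0.952, permutation adjusted p 0.0006, n = 11) were the other 2 of the 3 relations that passed. The difference in r between models was not tested. In CPM summed over each list, endothelial markers had 193 to 417 in 2225 and 36.5 to 588 elsewhere (3 of 8 higher, 1 lower), macrophage markers 182 to 381 in 2225 and 32.9 to 3150 elsewhere (7 of 8 lower), and T cell markers 25.3 to 34.0 in 2225 and 3.01 to 129 elsewhere (2 of 8 higher, 6 lower). In 2225 the T cell sum came mostly from Lck (22.1 CPM) and Cd4 (6.17 CPM), while Cd3e, Cd3d, Cd3g, Cd8a, Cd2 and Trac averaged 0.0214 to 0.286 CPM. None of these 24 markers was at 0 in all 2225 libraries. How much of the remaining member RNA came from such cells was not tested.

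**Figure D5:**
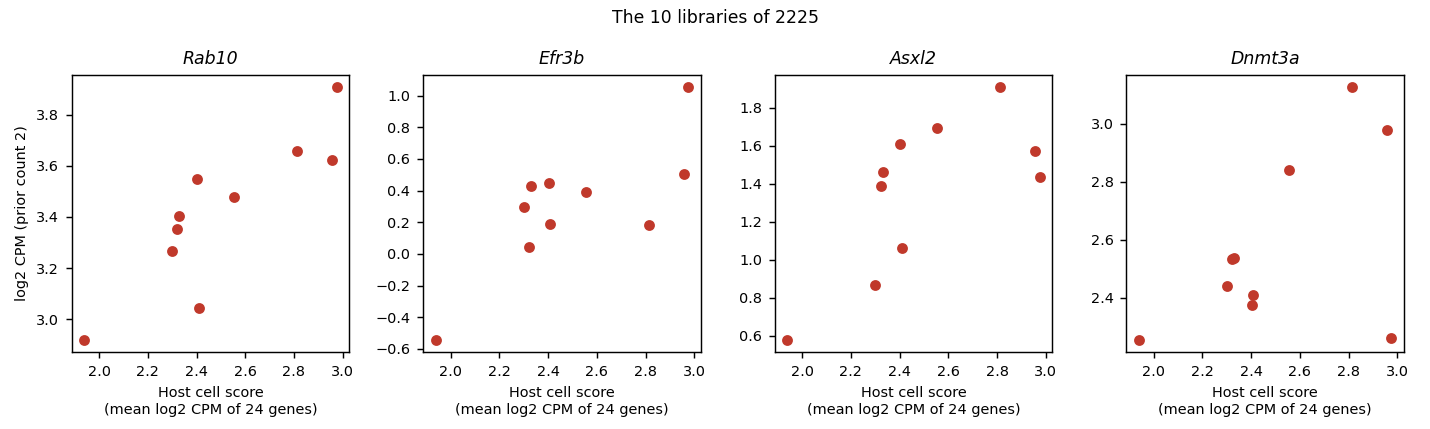
Log2 CPM (vertical, prior count 2) of Rab10, Efr3b, Asxl2 and Dnmt3a in the 10 libraries of 2225 against the host cell score (horizontal, mean log2 CPM of 24 marker genes). Rab10 rises with the score (r = 0.865), and Dnmt3a is more scattered (r = 0.535).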

How the data were processed

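RNA of cryopreserved tumours was made into mRNA libraries with an Illumina TruSeq kit, per the labels. STAR, SAMtools, Picard, Salmon and build mm10 are named in the submitters' processing notes, and no versions are. The authors deposited estimated counts per gene (85.5% of values whole) and a normalized signal table, whose values all come out, within 1%, when a library's counts are scaled so that its non-zero counts have a 75th percentile of 1000, with 1 in place of 0. The deposited signal values entered 1 alternative. Estimated counts were rounded to whole numbers for edgeR 4.0.16 (R 4.3.3). Genes were kept by filterByExpr by model (minimum count 10, minimum total 15) and scaled by TMM. They were fitted with 1 mean per model (robust quasi-likelihood, 69 residual degrees of freedom) and tested with Benjamini-Hochberg adjustment at 0.05. DESeq2 1.42.0 (counts also rounded) and limma 3.58.1 gave alternatives. CPM are counts scaled to TMM library sizes of 1e+06. Correlations used log2 CPM with a prior count of 2 and 100000 permutations, two-sided. Positions came from GENCODE M21, in which 45114 of the 47480 symbols matched 1 gene.

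The members and gene lists were chosen with earlier results of these data known. Beside the members, the text names the tested genes within and beside the run on chromosome 12, the 5 genes most like Dnmt3a, the closest relative of a member, and from each list up to 2 genes with the largest rise and 2 with the largest fall. Some genes that this rule names are not reported here. The series' design text calls the tumours of a model biological replicates. Whether those of 1 model share a donor tumour is not given in the sources used here, so p-values measure the spread between these tumours. The replicate numbers follow accession order and pair nothing. The labels give no batch or date.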

Additional observations from a re-analysis of the deposited data

Results flagged for a closer look

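Within the models of 4 to 10 tumours, 80 groups of values (10 genes in 8 models, log2 CPM) were scanned for a single tumour far from the others, a scan that marks about 1 group in 20 by chance. It marked 5 groups, none of them in 2225. In 2224, tumour 1 had the highest Hadhb at 115 CPM, against 54.6 to 57.5 CPM in the other 3 (gap over range 0.930), and the lowest Dtnb at 30.6 CPM, against 44.1 to 46.0 CPM (0.899). Tumour 2 of 2224 had the lowest Dnmt3a, 63.8 CPM against 72.6 to 73.6 CPM in the other 3 (0.906). In 9263, tumour 1 had the lowest Hadhb at 45.5 CPM, against 69.4 to 85.4 CPM (0.672), and the highest Rab10 at 173 CPM, against 112 to 130 CPM (0.658).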

How the results depend on the processing

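Apart from Pomc, which rests on 14 reads in 2225 and whose fitted log2 difference was -1.44 against the 8 other BALB/c models alone, the 2225 differences of the members moved by less than 1 SD of the 2225 libraries under 6 alternatives (size factors, DESeq2, no filter, the authors' table, BALB/c models only, without T12 and E0771) and with each of 37 libraries left out in turn. Over the 6 alternatives Dnmt3a ran from -3.78 to -3.67 and Dtnb from -6.58 to -6.51, and over the 37 leave-outs from -3.76 to -3.66 and from -6.57 to -6.38. Genes called in 2225 numbered 13461 to 15205 over the alternatives and 13428 to 14143 over the leave-outs, against 13938. Genes differing among the other 12 models numbered 21768 to 26440 and 22194 to 23176, member calls in those models 66 to 72, and partner genes called 65 to 72 and 67 to 74. The run around Dnmt3a held 6 to 8 genes under the thresholds added later.

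The relation to the host cell score was less stable. Members passing numbered 2 with endothelial markers alone, 2 with size factors and 2 without the 2 farthest libraries, against 1, and the cause was not tested. Efr3b passed in the first 2 of these (r = 0.952 and 0.785). The r of Pomc was 0.093 with endothelial markers alone and 0.09 without the 2 farthest libraries, against -0.064. Rab8a passed as lower in 2 alternatives (limma, adjusted p 0.0274; DESeq2, adjusted p 0.045) and without 2224 tumour 1 (edgeR adjusted p 0.0463), 2225 tumour 6 (0.048) or 10 (0.0301), or KPB1-A tumour 1 (0.0485). Dnmt3l did not pass without 2225 tumour 5 (edgeR adjusted p 0.0737), Dync2h1 without 2225 tumour 1 (0.0655) and Kif3b without 2225 tumour 8 (0.0628). The RAB10 list had 2 higher genes in place of 1 without 2225 tumour 2, 4 or 8, 2336 tumour 4 or MMTV-PYMT tumour 1, and without 2225 tumour 2 the ASXL and BAP1 list had 2 in place of 4. Without T12 and E0771 the ASXL and BAP1 list had 4 lower genes in place of 2, fatty acid oxidation 4 in place of 2, and kinesin-2 transport 3 higher genes in place of 5. Against the 8 other BALB/c models fatty acid oxidation had 1 lower gene, and the germ line list had 2 higher and 1 lower in place of 1 and 3. With no filter it had 4 higher. The RAB10 list had 2 higher genes in both model subsets.

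Depth limits Pomc, Dtnb, Dtna, Dtnbos, Dnmt3aos and Gm26520, which have few or no reads in 2225. No paired analysis was possible because replicate numbers follow accession order.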
